A study of Mus musculus with 16 samples.

Results

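The 10 genes described here are Pparg, Cd36, Lpl, Vldlr, Fabp1, Fabp2, Fabp4, Fabp5, Slc27a2 and Slc27a5, taken by symbol from the gene tables of mouse liver and white adipose tissue. All 10 were found, among 22322 genes in each table. Fatty acids reach a cell either free in the blood or from lipoprotein triglyceride cut at the capillary wall, cross the membrane with the help of transport proteins, and are carried through the cytosol by small binding proteins of the FABP family. PPARγ, the nuclear receptor encoded by Pparg, pairs with RXR on direct repeats of its DNA site and switches on many of these genes. It is abundant in adipocytes, where it drives fat cell formation, and is usually scarce in hepatocytes, although it rises in the fatty livers of obese mice.

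The animals were mice with diet-induced obesity, and no genotype, strain, sex, age, fat depot or vehicle is named in the labels. One arm received halofuginone into the peritoneum at 100 μg/kg once every 2 days, the other received vehicle, and tissue was collected after 8 weeks. The vehicle arm carries the label HFD and the halofuginone arm H100. Halofuginone is a small molecule that blocks prolyl-tRNA synthetase and so evokes the amino acid response. There were 5 vehicle and 5 halofuginone livers, and 3 vehicle and 3 halofuginone samples of white adipose tissue, each numbered within its group. Nothing in the labels says that the samples of a group came from separate mice, so the p-values measure the spread between these samples, and nothing says which liver and fat came from the same mouse.

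Each library was poly(A)-selected and held 20309956 to 31980683 counts in liver and 17070614 to 21387799 in fat. The livers had hepatocyte genes at a summed level of 47490.3 to 130670 CPM (counts scaled to the size of the library) against 3.25 to 7.89 CPM in fat. Adipocyte genes summed to 6029 to 13463 CPM in fat against 18.3 to 119.7 CPM in liver, so both labelled tissues carried their defining genes. Halofuginone liver 1 stood apart from its group. On the first principal component of liver, which held 56.2% of the variance, it lay at -23.3, near the vehicle livers at -36.0 to -28.3 and away from the other halofuginone livers at 32.4 to 58.0. Values without that library are therefore given beside the liver result of each of the genes described here. The library was singled out from these same data, so those values describe its weight and are no separate support. For the lists of neighbouring pathway genes only the number called without it is given. Fold changes of single genes from any other list are with all livers, and their dependence on that library is not shown.

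In vehicle liver the deposited FPKM, which scales counts by gene length and so allows genes to be compared, ran over more than 3 orders of magnitude. Fabp1 was highest at 3539 ± 449 FPKM (SD, n = 5), followed by Slc27a2 at 796 ± 42.5, Slc27a5 at 346 ± 26.3, Fabp2 at 91.4 ± 4.69 and Cd36 at 86.4 ± 10.2. The ranges of Fabp2 and Cd36 overlapped. Fabp4 came next at 21.9 ± 8.23 FPKM, then Pparg at 9.48 ± 3.87, Fabp5 at 7.17 ± 3.01 and Lpl at 4.79 ± 1.07, each of the last 3 overlapping its neighbour, and Vldlr was lowest at 1.26 ± 0.654. Vehicle fat held a different set at the top: Fabp4 stood at 9916 ± 2996 FPKM (SD, n = 3), Cd36 at 2462 ± 754 and Lpl at 1625 ± 437, with the ranges of Cd36 and Lpl overlapping. Fabp5 followed at 392 ± 108 FPKM, Pparg at 75.8 ± 19.4, Vldlr at 19.5 ± 6.57 and Slc27a2 at 1.64 ± 1.68. Fabp1, Fabp2 and Slc27a5 had at most 3 counts in each of the 6 fat libraries.

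The first comparison asked how halofuginone altered these genes in obese liver. All 10 passed the filter on low counts and 6 were called at an adjusted p under 0.05. Higher was 1 (Fabp5), against 12.7% of the 12311 genes tested that were called higher, and lower were 5 (Cd36, Fabp4, Pparg, Fabp2 and Slc27a5), against 10.5% called lower. The median log2 fold change was -0.76 over the 10 members and 0.02 over all genes tested. Without halofuginone liver 1, 9 of the 10 were called, all but Slc27a2. The calls over all genes rose from 2850 (23.2%) to 5312, of which 49.5% were higher. The number of genes tested in that fit is not given here, so 9 of 10 has no share to be read against. In 4 genes, Pparg, Cd36, Fabp2 and Fabp4, every halofuginone liver lay below every vehicle liver, against 6.55% of all genes tested. In bulk tissue, fewer cells of a type and less RNA per cell cannot be told apart. The summed hepatocyte genes also differed, at 114275 to 130670 CPM in vehicle livers and 47490.3 to 107890 CPM in halofuginone livers. Most of that sum was Alb, at means of 94154 CPM in vehicle and 51781 CPM in halofuginone livers. Alb was not called (adjusted p = 0.0742), though every treated liver lay below every vehicle liver. Of the 8 genes, 1 was called higher (Tat, log2 fold change 1.66) and 1 lower (Ttr, -1.17). By sign alone, 2 were higher and 6 lower. The part of the hepatocyte genes in the results for the members was not tested.

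**Figure D1:**
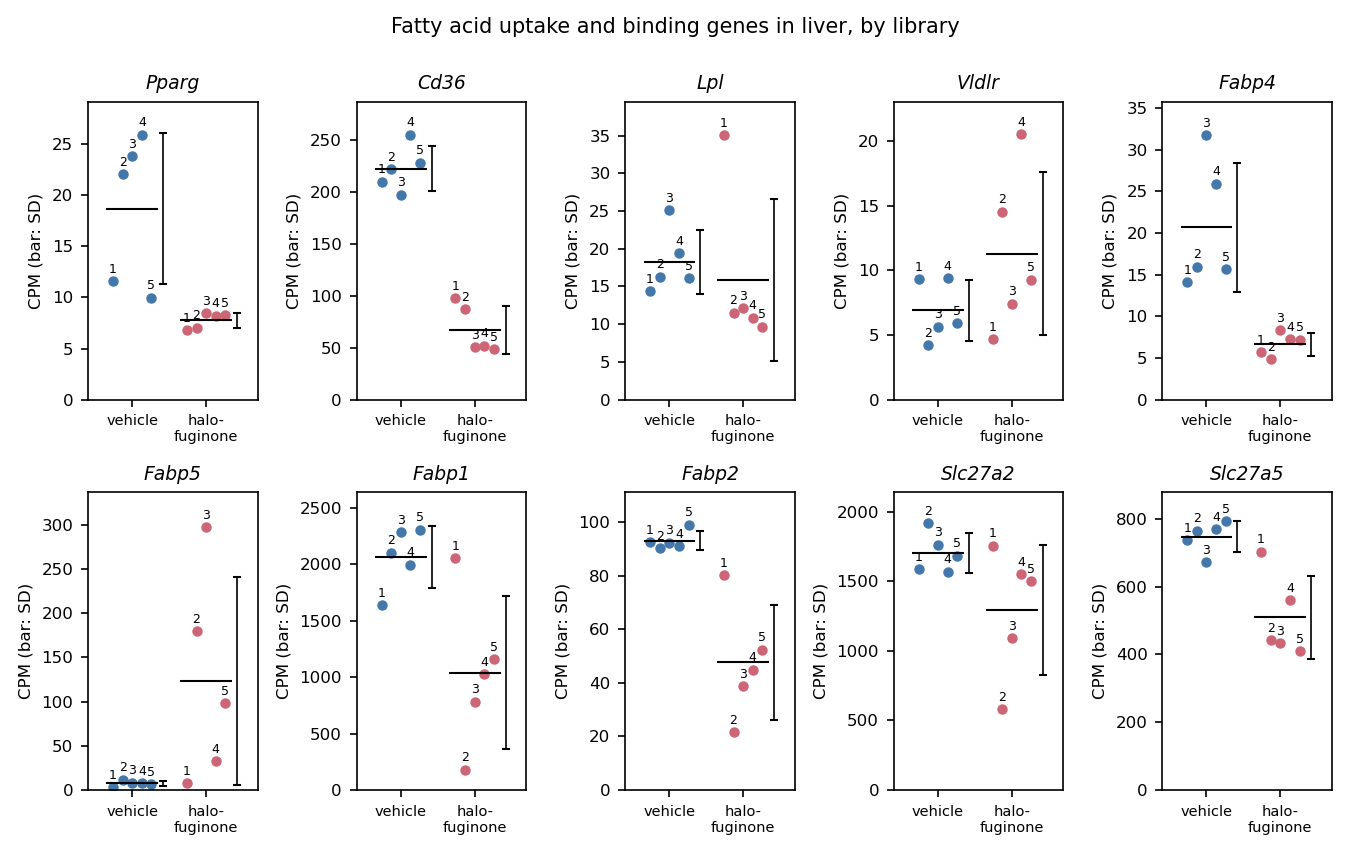
Level of each gene in CPM (vertical axis, linear, from 0) in 5 vehicle and 5 halofuginone livers; points are libraries with their replicate number, horizontal lines are means and bars are SD. Pparg, Cd36, Fabp2 and Fabp4 have no overlap between the groups, and halofuginone liver 1 lies among the vehicle livers for Fabp1, Fabp5, Slc27a2 and Slc27a5.

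Pparg (ENSMUSG00000000440) fell in treated liver and became uniformly low. Vehicle livers 1 to 5 held 11.6, 22.1, 23.8, 26.0 and 9.96 CPM, and halofuginone livers 1 to 5 held 6.81, 7.05, 8.44, 8.22 and 8.27 CPM. Vehicle livers 1 and 5 lay well below the other vehicle livers, yet above every treated one, and halofuginone liver 1 was as low as the rest of its group. Halofuginone over vehicle gave a log2 fold change of -1.26 (SE 0.25, adjusted p = 0.00947, edgeR quasi-likelihood test), from 18.7 ± 7.37 to 7.76 ± 0.767 CPM (SD, n = 5). Leaving out halofuginone liver 1 gave -1.24 (adjusted p = 0.00441). The counts are per gene and do not separate the isoforms of Pparg that start from different promoters.

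Cd36 (ENSMUSG00000002944), the membrane translocase for long-chain fatty acids and a scavenger receptor for oxidised lipoproteins, had the largest estimated fall of the 10. Its levels were 210.1, 222, 198, 255 and 229 CPM in vehicle livers 1 to 5 and 97.7, 87.5, 50.6, 52.0 and 48.5 CPM in halofuginone livers 1 to 5. The treated livers formed a higher pair, 1 and 2, and a lower trio, 3 to 5, all under the lowest vehicle liver. Its log2 fold change was -1.73 (SE 0.21, adjusted p = 0.00158), and -1.92 (adjusted p = 2.65e-05) without halofuginone liver 1.

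Lpl (ENSMUSG00000015568), the lipase that releases fatty acids from circulating triglyceride, was 14.3, 16.3, 25.1, 19.4 and 16.1 CPM in vehicle livers and 35.1, 11.5, 12.1, 10.8 and 9.64 CPM in halofuginone livers. Halofuginone liver 1 was the highest of the 10 livers and the other 4 treated livers were the lowest. With all libraries no difference was called (log2 fold change -0.21, SE 0.34, adjusted p = 0.678). Without halofuginone liver 1 the log2 fold change was -0.75 (SE 0.16, adjusted p = 0.00346). That library also had the highest sums of macrophage genes, 594 CPM against 342 to 472 CPM in the other livers, and of lymphocyte genes, 12.3 against 1.45 to 4.49 CPM. Their part in the result was not tested.

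Vldlr (ENSMUSG00000024924), a receptor that takes up triglyceride-rich lipoproteins and their remnants, held 9.31, 4.21, 5.64, 9.37 and 5.93 CPM in vehicle livers and 4.67, 14.5, 7.41, 20.5 and 9.27 CPM in halofuginone livers. Treated livers 2 and 4 exceeded every vehicle liver while 1, 3 and 5 lay within the vehicle range. The log2 fold change of 0.71 (SE 0.36) did not pass the threshold (adjusted p = 0.170), and it was 0.88 (SE 0.31, adjusted p = 0.0424) without halofuginone liver 1. Of the 9 promoters that the RefSeq table (GRCm38.p6) gives for 6 of the genes, 1 of the pair listed for Vldlr was the only one with a composite C/EBP-ATF site, the kind of site through which amino acid response factors are known to act. The letters searched were TGATGNAA on both strands, found in 3.97% of 32851 promoters of the same length. The match, shown because it sets Vldlr apart from the other promoters searched, lay at chr19:27216809-27216838 on the plus strand, bases -211 to -182 from the start site, with its 8 bases in capitals.
Vldlr: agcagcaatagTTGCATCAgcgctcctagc
The match is a description of the letters and not evidence that a factor binds there.

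**Figure D2:**
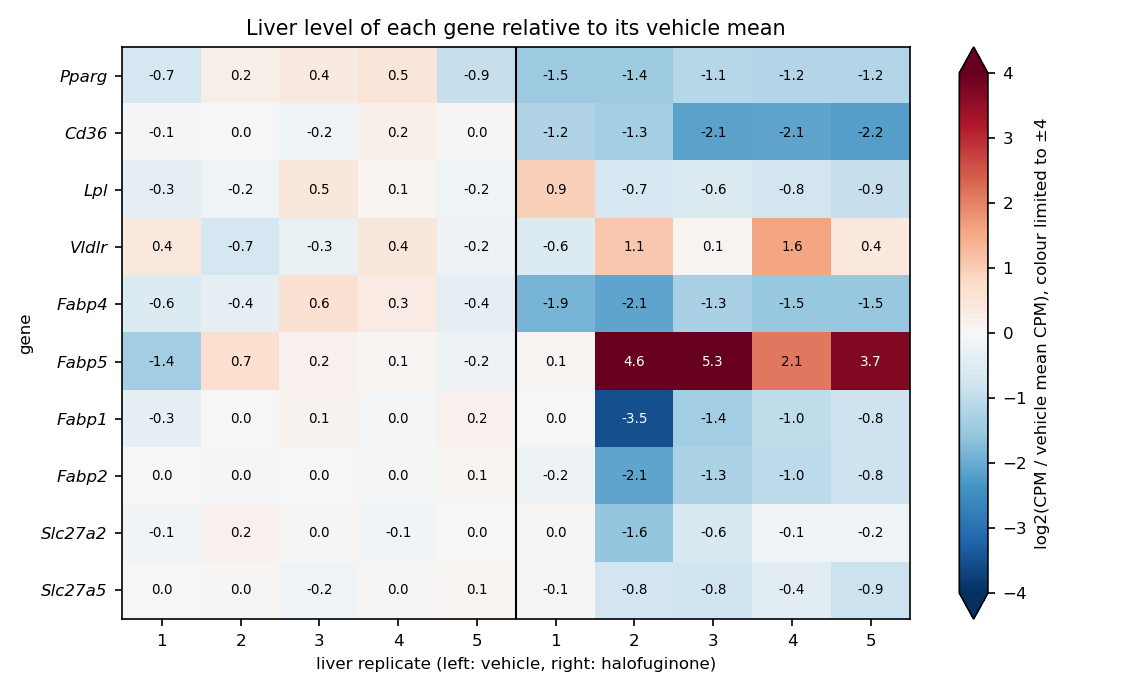
Level of each gene (rows) in each liver (columns, vehicle left and halofuginone right) as log2 of its CPM over the vehicle mean; numbers are the same values to 1 decimal. Halofuginone liver 1 is low for Pparg, Cd36 and Fabp4 and near 0 for Fabp1, Fabp5, Slc27a2 and Slc27a5, and halofuginone liver 2 has the lowest values of Fabp1, Fabp2 and Slc27a2.

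Of the binding proteins, Fabp4 and Fabp2 fell, Fabp5 rose, and Fabp1 was not called with all libraries. Fabp4 (ENSMUSG00000062515), the form of adipocytes and macrophages, was 14.1, 16, 31.8, 25.9 and 15.7 CPM in vehicle livers and 5.71, 4.85, 8.34, 7.21 and 7.19 CPM in halofuginone livers. No treated liver, number 1 included, reached the vehicle range. This amounted to a log2 fold change of -1.63 (SE 0.24, adjusted p = 0.00374), and -1.60 (adjusted p = 0.00085) without halofuginone liver 1. Adipocyte genes summed to 55.6 to 119.7 CPM in vehicle livers and 18.3 to 65.3 CPM in treated livers. Of the 10 on that list, 7 had at most 3 counts in every vehicle liver: Adipoq, Plin1, Lep, Retn, Lgals12, Slc7a10 and Adig. The other 3 passed the filter and 2 of them, Cfd and Lipe, were called lower. The largest part of the sum by mean was Cidec, at 57.0 CPM in vehicle and 21.7 CPM in treated livers. Cidec was not called (adjusted p = 0.143). Cfd, Lipe and Cidec are also on the list of target genes of Pparg. Macrophage genes summed to 373 to 472 CPM in vehicle livers and 342 to 594 CPM in treated livers with 1 of 11 called, lower. Endothelial genes summed to 174 to 204 CPM and 162 to 202 CPM with 1 of 9 called higher and 3 lower. These counts stand against 12.7% called higher and 10.5% called lower over all genes tested in liver. The part of adipocytes, macrophages and endothelium in the fall of Fabp4 and Cd36 was not tested.

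Fabp5 (ENSMUSG00000027533), the epidermal form, which is also made by macrophages and endothelium, was the only member called higher in liver with all libraries. Vehicle livers held 2.85, 11.8, 8.39, 7.92 and 6.49 CPM and halofuginone livers held 8.10, 179.9, 297, 32.5 and 97.9 CPM. Halofuginone liver 1 stayed within the vehicle range, and the other 4 lay above it with a wide spread among them. The log2 fold change was 4.04 (SE 0.81, adjusted p = 0.00932), or 16.5-fold, and 4.33 (SE 0.58, adjusted p = 0.000244) without halofuginone liver 1. By size of rise it ranked 9 among the 12311 genes tested. In deposited FPKM it went from eighth of the 10 genes in vehicle liver, at 7.17 ± 3.01, to the fourth in treated liver, at 139.5 ± 142 (SD, n = 5). In treated livers 2 to 5, where it was high, macrophage genes summed to 342 to 380.4 CPM, against 373 to 472 CPM in vehicle livers. Epithelial genes summed to 288 to 565 CPM in vehicle livers and 223 to 656 CPM in treated livers. Of the 8 on that list 5 passed the filter and 1, Krt18, was called higher, against 12.7% of all genes. Most of the sum came from Krt8 and Krt18, at means of 206 and 153 CPM in vehicle livers, while Krt5 and Krt14 were 0 in every liver. The part of macrophage and epithelial genes in the rise of Fabp5 was not tested. A copy, Fabp5l2, is annotated as a pseudogene, and how the counting divided reads between near-identical copies is not given in the sources used here.

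Fabp1 (ENSMUSG00000054422), the liver form and the main fatty acid binding protein of hepatocytes, held 1639.7, 2103, 2286, 1997 and 2308 CPM in vehicle livers and 2053, 182, 783, 1027 and 1159 CPM in halofuginone livers. Halofuginone liver 1 sat inside the vehicle range, the other 4 were below it, and liver 2 was lowest, at a log2 ratio of -3.51 to the vehicle mean. The difference was not called with all libraries (log2 fold change -0.99, SE 0.45, adjusted p = 0.126) and was called without halofuginone liver 1 (-1.41, SE 0.41, adjusted p = 0.0186). Without halofuginone liver 2 it was -0.73 (SE 0.26, adjusted p = 0.0756). Fabp2 (ENSMUSG00000023057), the intestinal form, was tightly grouped in vehicle livers at 92.5, 90.3, 92.3, 91.0 and 99.1 CPM. It fell to 80.3, 21.6, 38.8, 45.0 and 52.4 CPM in halofuginone livers, each below every vehicle liver. Its log2 fold change was -0.97 (SE 0.26, adjusted p = 0.0247), and -1.26 (SE 0.20, adjusted p = 0.000761) without halofuginone liver 1. The call was lost without any 1 of vehicle livers 2 and 5 and halofuginone livers 3, 4 and 5, at an adjusted p of 0.0504 to 0.0667. Of 8 enterocyte genes, Lct, Sis, Alpi, Cdx1 and Cdx2 had at most 3 counts in every liver of either arm. Apoa4 of that list, an apolipoprotein that liver also makes, fell from 1913 ± 628 to 893 ± 330 CPM (log2 fold change -1.10, adjusted p = 0.0233), with every treated liver below every vehicle liver. Lgals4 was 3.22 ± 0.62 and 3.80 ± 0.985 CPM and was not called, and Vil1 did not pass the filter. Their part in the fall of Fabp2 was not tested.

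The promoter of Fabp1 is printed because it was the only one of the 9 that held a direct repeat of the kind bound by PPAR and RXR. The strict repeat AGGTCANAGGTCA was in none of the 9 and in 0.0396% of the 32851 promoters in the table. With a free base in each repeat, AGGNCANAGGNCA was found once, in Fabp1 at -67 to -55 on the minus strand, against 0.381% of all promoters. The shorter site AGGTCA, which also lies within that match at -67 to -62, occurred in promoters of Fabp1, Cd36, Slc27a2 and Pparg, and in 16.3% of all promoters. Fabp4, Fabp5, Lpl and Slc27a5 had no entry in the promoter table. The sequence runs from chr6:71199629-71199878 on the plus strand of GRCm38.p6, bases -250 to -1 from the start site, with the match in capitals.
Fabp1: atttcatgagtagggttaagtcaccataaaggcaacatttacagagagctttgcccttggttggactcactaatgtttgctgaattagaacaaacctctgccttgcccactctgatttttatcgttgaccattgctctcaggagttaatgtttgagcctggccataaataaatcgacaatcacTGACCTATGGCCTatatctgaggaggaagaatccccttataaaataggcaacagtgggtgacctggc

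The hepatocyte transport proteins of the SLC27 family, which take up fatty acids and join them to coenzyme A, moved less. Slc27a2 (ENSMUSG00000027359), the transporter and very long-chain acyl-CoA synthetase FATP2, was 1587, 1915, 1762, 1569 and 1684 CPM in vehicle livers and 1756, 580.3, 1089.6, 1551 and 1502 CPM in halofuginone livers. Treated livers 4 and 5 lay just under the vehicle range, 2 and 3 well under it and 1 inside it. No difference was called with all libraries (log2 fold change -0.39, SE 0.25, adjusted p = 0.269) or without halofuginone liver 1 (-0.55, SE 0.25, adjusted p = 0.102). Slc27a5 (ENSMUSG00000030382), FATP5, which also activates bile acids, was 738, 764, 672, 769.7 and 792 CPM in vehicle livers and 703, 441, 434, 559 and 410.4 CPM in halofuginone livers. Only treated liver 1 reached the vehicle range. The log2 fold change was -0.55 (SE 0.16, adjusted p = 0.0321), and -0.72 (SE 0.12, adjusted p = 0.000937) without halofuginone liver 1. The call was lost with library size alone as the scaling (-0.41, adjusted p = 0.0573) and without any 1 of 8 other libraries, at an adjusted p of 0.0504 to 0.0849; those were all the vehicle livers but 3, and halofuginone livers 2 to 5.

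The members thus differed in where halofuginone liver 1 fell. For Pparg, Cd36 and Fabp4 its log2 ratio to the vehicle mean was -1.46, -1.19 and -1.86. For Fabp1, Fabp5, Slc27a2 and Slc27a5 the same ratio was -0.01, 0.11, 0.04 and -0.09, and for Lpl it was 0.94. Fabp2 lay at -0.21 in that library and at -2.11 to -0.83 in the other treated livers. Vldlr lay at -0.56 there and at 0.10 to 1.57 in the other treated livers.

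The second comparison asked the same question in white adipose tissue. Here 7 of the 10 genes passed the filter and none was called by edgeR, against 0% of the 14030 genes tested. At an unadjusted p under 0.05 there were 2 members, Pparg higher and Lpl lower, against 13.4% of all genes (5.5% higher and 7.91% lower), and DESeq2, limma and edgeR with 1 shared fit called no member either, although DESeq2 called 723 genes in all. The median log2 fold change was -0.29 over the 7 members and 0.01 over all genes.

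**Figure D3:**
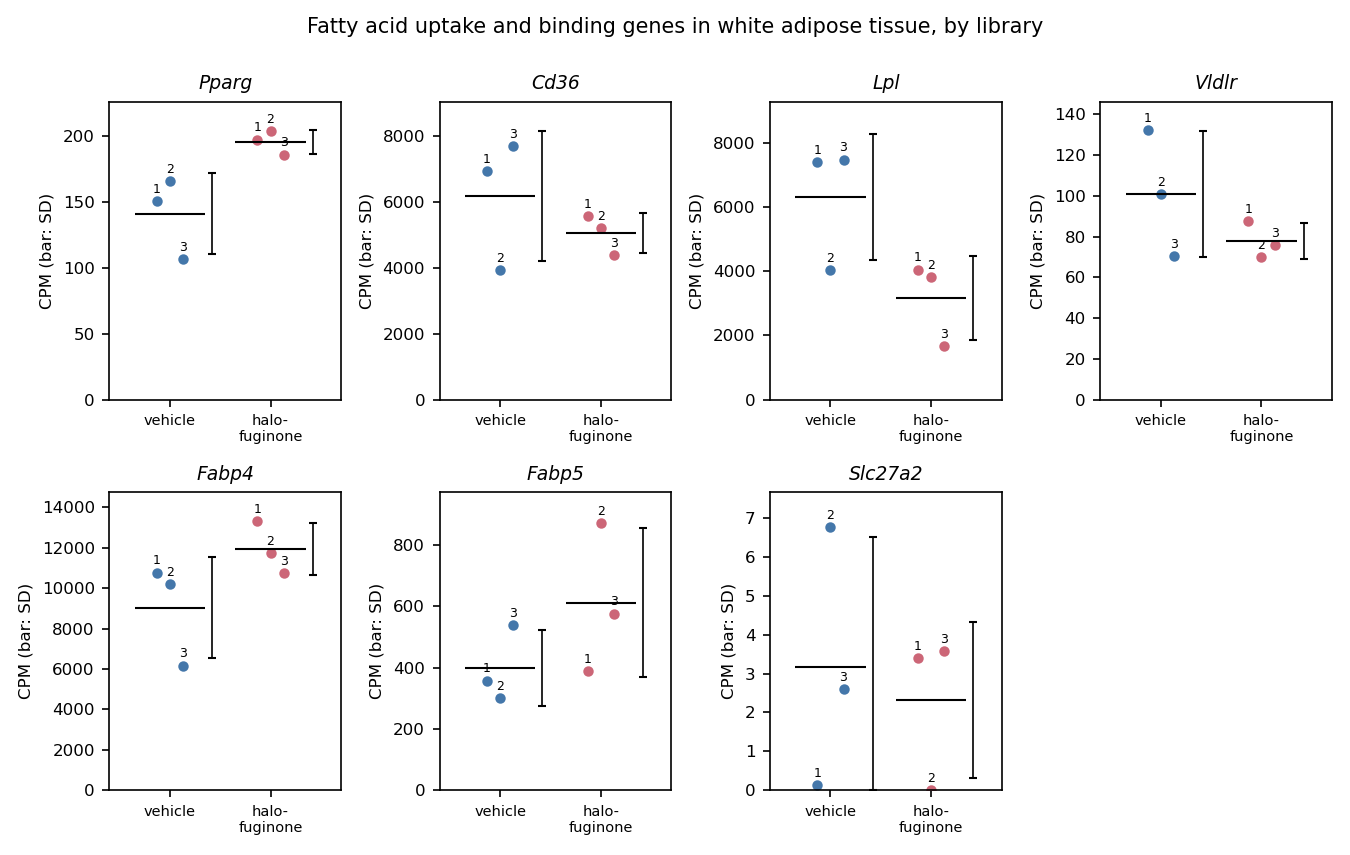
Level in CPM (vertical axis, linear, from 0) of the 7 genes that passed the filter in 3 vehicle and 3 halofuginone samples of white adipose tissue; points are libraries with their replicate number, lines are means and bars are SD, cut at 0. Only Pparg has no overlap between the groups, at 107 to 166 CPM in vehicle and 186 to 204 CPM in halofuginone samples.

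Pparg in fat was 151, 166 and 107 CPM in vehicle samples 1 to 3 and 197, 204 and 186 CPM in halofuginone samples 1 to 3. All 3 treated samples lay above all 3 vehicle samples, as did those of 10.2% of all genes. In the fit this was a log2 fold change of 0.47 (SE 0.20, unadjusted p = 0.0479, adjusted p = 0.367). Vehicle sample 3, which set the low end, also had the lowest sum of adipocyte genes, 6029 CPM against 8694 to 13463 CPM in the other 5 samples. It had the lowest endothelial sum, 657 against 1431 to 1995 CPM, and the highest macrophage sum, 12403 against 4306 to 6861 CPM. Without it the log2 fold change of Pparg was 0.31 (adjusted p = 0.458). Between the groups, all 10 macrophage genes tested had lower values in treated fat, 8 of them at an unadjusted p under 0.05 and none called, with a median log2 fold change of -1.14. Adgre1, the F4/80 antigen, was 385 ± 60.1 CPM in vehicle and 133 ± 8.61 CPM in treated fat (SD, n = 3, adjusted p = 0.0954), and was picked after its values were seen. The part of these cells in the fat values of all members was not tested.

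Fabp4, the most abundant of the group in fat, was 10772, 10193 and 6154 CPM in vehicle samples and 13312, 11724 and 10754 CPM in halofuginone samples. Treated sample 3 lay just under vehicle sample 1, and the log2 fold change was 0.40 (SE 0.27, adjusted p = 0.571), or 0.19 without vehicle sample 3. Fabp5 was 357, 299.8 and 539 CPM in vehicle samples and 389, 871 and 576 CPM in halofuginone samples, with overlapping groups and a log2 fold change of 0.62 (SE 0.35, adjusted p = 0.494). Vehicle sample 3 was the highest of its group for this gene.

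Lpl, made by adipocytes and carried to the capillary wall, was 7394, 4039.9 and 7474 CPM in vehicle samples and 4049, 3804 and 1662 CPM in halofuginone samples. Vehicle sample 2 and treated samples 1 and 2 were nearly level, and treated sample 3 was the lowest. The log2 fold change was -0.99 (SE 0.41, unadjusted p = 0.0456, adjusted p = 0.36). Cd36 was 6913, 3930.4 and 7674 CPM in vehicle samples and 5557, 5200.03 and 4376 CPM in halofuginone samples, all treated samples within the vehicle range (log2 fold change -0.29, SE 0.29, adjusted p = 0.719). Vldlr was 132, 101 and 70.3 CPM in vehicle samples and 87.7, 69.99 and 75.7 CPM in halofuginone samples (log2 fold change -0.38, SE 0.25, adjusted p = 0.562). Slc27a2 was 0.12, 6.77 and 2.6 CPM in vehicle samples and 3.40, 0 and 3.58 CPM in halofuginone samples, too scattered to give a direction (log2 fold change -0.45, SE 1.5, adjusted p = 0.932). Epithelial genes summed to 19.8, 126.5 and 61.0 CPM in the same vehicle samples and to 122, 14.2 and 104 CPM in the same halofuginone samples. Their part in the values of Slc27a2 was not tested.

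The difference between the tissues was tested directly, as the effect in fat minus the effect in liver in 1 fit of all 16 libraries. Pparg and Fabp4 passed the threshold, both positive, against 0.949% of the 14853 genes tested and 0.417% called positive. For Pparg the difference was 1.71 log2 units (SE 0.37, adjusted p = 0.0438) and for Fabp4 it was 2.01 (SE 0.42, adjusted p = 0.0364). Both were lower in treated liver, while in fat the values were 0.47 and 0.40 and not called. Neither call was firm. Without fat vehicle sample 3 the difference was 1.53 for Pparg (adjusted p = 0.0883) and 1.78 for Fabp4 (adjusted p = 0.0705). Leaving out 1 library ended the call of Pparg for 13 of the 16 libraries, all but vehicle livers 1 and 5 and halofuginone liver 1, and that of Fabp4 for 10, namely vehicle livers 2 to 4, halofuginone livers 3 to 5, vehicle fat 1 and 3 and halofuginone fat 1 and 2. Cd36 differed by 1.43 (SE 0.37, adjusted p = 0.0745) and Fabp5 by -3.45 (SE 1.06, adjusted p = 0.126). Without halofuginone liver 1 both of these were called as well, at 1.59 (adjusted p = 0.0125) and -3.76 (adjusted p = 0.012). Lpl (-0.80, adjusted p = 0.542), Vldlr (-1.11, adjusted p = 0.333) and Slc27a2 (-0.08, adjusted p = 1) were not called, and Fabp1, Fabp2 and Slc27a5 have too few counts in fat for a comparison.

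**Figure D4:**
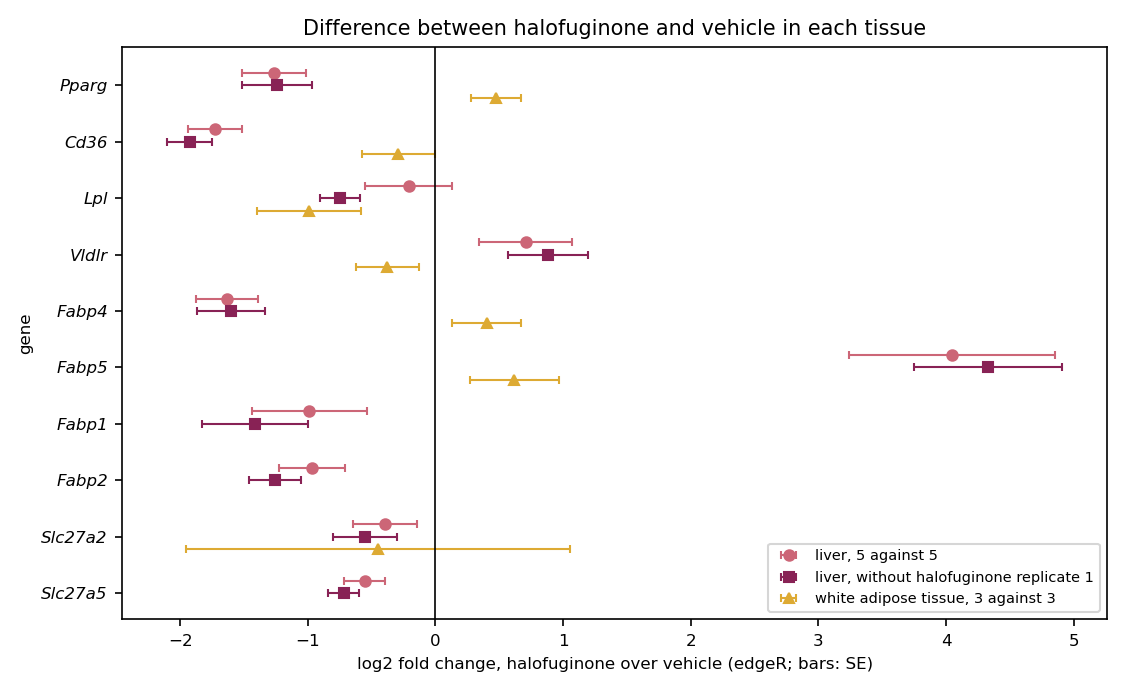
Log2 fold change of halofuginone over vehicle (horizontal axis) for each gene from edgeR, with bars for the SE: circles for all 10 livers, squares for liver without halofuginone replicate 1, triangles for 6 fat samples. Pparg and Fabp4 lie at -1.26 and -1.63 in liver and at 0.47 and 0.40 in fat, and Fabp5 lies at 4.04 in liver.

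The neighbouring steps of the pathway were described in lists of other genes, to be read against the 12.7% of all genes called higher, the 10.5% called lower and the median log2 fold change of 0.02 over all genes in liver. Of 19 other genes of fatty acid transport and activation, 13 passed the filter in liver, 3 were higher and 5 lower, with a median log2 fold change of -0.36. Higher were Cav1, the caveolae coat protein (1.88, SE 0.35, adjusted p = 0.00749), and the acyl-CoA synthetases Acsl4 (1.54) and Acsl3 (0.82). Lower were Dbi, the acyl-CoA binding protein (-0.84, SE 0.16, adjusted p = 0.00768), the synthetase Acsl5 (-1.07) and the transporter Slc27a1 (-1.18). Of 22 genes that control lipoprotein lipase or serve as lipoprotein receptors, 21 passed, 2 were higher and 7 lower, with a median of -0.16, so that the number higher was near the share over all genes. The lipolysis-stimulated receptor Lsr rose (0.63, adjusted p = 0.0274), as did the lipase maturation factor Lmf2 (0.53). Apoc2, the activator of the lipase, fell (-1.17, SE 0.21, adjusted p = 0.00675), as did its inhibitor Apoc3 (-0.59) and the maturation factor Lmf1 (-0.48).

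Of 27 partners and regulators of Pparg, 24 passed in liver, none was higher and 3 were lower, with a median of -0.09: Stat5a (-0.65), Cebpb (-0.32) and the coactivator Ppargc1a (-0.92), at adjusted p values of 0.0276, 0.043 and 0.0492. That share is near the 10.5% of all genes called lower. Of 28 target genes of Pparg, 23 passed, none was higher and 10 were lower, with a median of -0.73. Cidea, which promotes the growth of lipid droplets, went from 20.9 ± 11.6 CPM to at most 4 counts in a treated liver, where vehicle livers had 192 to 845 counts (adjusted p = 9.41e-05). Cfd, the protease adipsin, went from 13.8 ± 9.55 CPM to at most 2 counts (adjusted p = 9.41e-05). Mogat1, a monoacylglycerol acyltransferase of triglyceride synthesis, fell from 4.24 ± 1.32 to 0.402 ± 0.143 CPM (log2 fold change -3.39, SE 0.32, adjusted p = 0.000421). Cidea is also on the list of brown fat genes. That list summed to 74.4 to 133.6 CPM in vehicle livers and 20 to 62.1 CPM in treated livers. Most of the sum was Elovl3, at means of 77.3 CPM in vehicle and 36.9 CPM in treated livers. The 2 genes of the list that were tested, Cidea and Elovl3, were called lower. Its defining member Ucp1 had at most 3 counts in every liver.

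Of 25 target genes of Ppara, the related receptor that governs fatty acid oxidation in liver, all 25 passed, 2 were higher and 6 lower, with a median of -0.62. The rising members were the hormone Fgf21 (2.91, SE 0.51, adjusted p = 0.00617), which is also a target of the amino acid response, and the thioesterase Acot2 (1.93), whose counts may be shared with its near-identical neighbour Acot1. The oxidation genes Eci1 (-0.94), Acadm (-0.78) and Slc25a20 (-0.55) fell, at adjusted p values of 0.00971, 0.0173 and 0.0196. Without halofuginone liver 1 the number called rose from 8 to 17 for the Ppara targets, from 3 to 6 for the partners of Pparg, from 10 to 15 for its targets, from 9 to 12 for lipase control and from 8 to 10 for other transport. The calls over all genes rose as well, from 2850 (23.2%) to 5312. Leaving out 1 other liver gave 1275 to 1921 calls over all genes, and 7 at the fewest for the targets of Pparg. The Ppara targets went down to 5 without vehicle livers 2, 3 or 5 or halofuginone livers 3 or 4 and to 4 without halofuginone liver 5. The partners of Pparg went down to 0 without vehicle livers 1, 2 or 3 or halofuginone livers 3, 4 or 5 and to 1 without vehicle liver 4. Lipase control went down to between 2 and 5 without any 1 of the other 9 livers, and other transport to 5 without vehicle liver 2 or halofuginone liver 5 and to 4 without halofuginone liver 3. As a readout of the drug, 7 of 8 amino acid response genes were called higher, against 12.7% of all genes. Asns rose by 6.80 log2 units (adjusted p = 0.000896), Trib3 by 5.78 and Sesn2 by 1.81. Their lowest treated livers held 6.71, 5.96 and 12.0 CPM, and their highest vehicle livers 1.35, 5.73 and 9.50 CPM. For Atf4, Ddit3, Psat1 and Eprs, 4 of the 5 treated livers lay above every vehicle liver, and for Chac1, not called, 3 did. Ddit3 and Chac1 each had 1 treated liver below every vehicle liver.

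In fat edgeR, fitted to fat alone, called no gene of any of these lists. At an unadjusted p under 0.05 there were 0 higher and 1 lower of 16 other transport genes, 1 and 2 of 19 lipase genes, 4 and 1 of 27 partners, 3 and 3 of 27 targets of Pparg, and 2 and 2 of 23 targets of Ppara, against 5.5% higher and 7.91% lower over all genes tested. DESeq2 called 0, 1, 0, 3 and 3 in these lists, and edgeR in 1 fit of all groups called 0, 1, 0, 1 and 2. Over all genes the same fits called 723 and 334 for fat. Values with the smallest p included a log2 fold change of -2.21 for the binding protein Fabp7 and of 1.55 and -0.50 for Angptl8 and Lrp1. Among the partners they included 0.82 for Ebf1 and 0.80 for Cebpb. Among the targets of Pparg, G0s2, an inhibitor of fat breakdown, had 2.01 (adjusted p = 0.123), Cfd 1.88 (adjusted p = 0.159), Me1 -0.73 and Ucp2 -0.62. Cfd was 708 ± 307 CPM in vehicle fat and 2603 ± 849 CPM in treated fat (SD, n = 3), whereas in liver it fell. Of the targets of Ppara, Acot2 had 2.21, Fgf21 2.42, Acaa1b -1.71 and Cpt1a -0.44. For the amino acid response 7 of 9 genes had an unadjusted p under 0.05, all higher, with Ddit3 at 2.36 and Trib3 at 3.45 (adjusted p = 0.0954 and 0.116).

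Genes whose level followed that of 3 members most closely were listed as a description, by Pearson's r of log2 CPM over the libraries of a tissue, which share their treatment groups. In liver, over 10 libraries and 8817 genes, Pparg was followed by Tmem106c (r = 0.95), Enpp5 (0.944) and Pgam1 (0.94), Cd36 by Tmem19 (0.975), Laptm4a (0.973) and Cyp3a11 (0.971), and Vldlr by Exosc7 (0.932), Stxbp2 (0.927) and Tbl3 (0.924). In fat, over 6 libraries and 10952 genes, the closest were Cmss1 (0.997), Mcrip1 (0.995) and Zfp579 (0.993) for Pparg, Eif4g3 (0.996), Mlh3 (0.995) and Polk (0.99) for Cd36, and Zdhhc2 (0.995), Trim16 (0.975) and Car3 (0.971) for Vldlr. No gene named for liver was named for fat. With 3 genes named per member among 8817 and 10952, an overlap was unlikely in any case, so nothing follows from its absence.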

How the data were processed

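The members and gene lists were chosen with earlier results of these data known. Per the labels' protocols, RNA was taken with Trizol, poly(A) RNA was captured on oligo(dT) beads and libraries were made with a NEBNext Ultra kit. The submitters' processing notes name fastp 0.18.0, Bowtie2 2.2.8, HISAT2, StringTie 1.3.1, RSEM and the build mm39, with no role or order. The authors deposited whole-number read counts and FPKM per gene, 22322 identifiers in each tissue's table, per the file headers. Counts may be rounded estimates: 1 to 31 genes per library had a count of 0 and an FPKM above 0. Gene symbols were found for 22267 of the identifiers. No coordinates of genes are given, since the reference at hand is of another build.

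From the counts, edgeR 4.0.16 (R 4.3.3; filterByExpr, TMM scaling, quasi-likelihood test, two-sided) was fitted to each tissue alone and, for the difference between tissues, to all 16 libraries, taken as independent, with Benjamini-Hochberg adjustment over all genes tested and a threshold of 0.05. CPM is the count relative to the TMM-scaled library size. Error is SD for levels and SE for log2 fold changes. The biological coefficient of variation was 0.229 in liver and 0.337 in fat. A count of 3 in a library, 0.0938 to 0.176 CPM by its total, was taken as the floor, which covers counting error only. No libraries of a group agreed within sampling noise (chi-square over its degrees of freedom at least 29.7 for pairs of livers and 50.5 for pairs of fat samples).

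All 10 members are named in both tissues. From each list up to 3 called genes in each direction with the smallest adjusted p are named in liver, and up to 2 with the smallest unadjusted p under 0.05 in fat. Some genes that this rule names are not reported here. The genes most like Pparg, Cd36 and Vldlr are the 3 with the highest r among genes of at least 5 CPM. Alternatives were DESeq2 1.42.0, its size factors, library size alone, no filter, at least 1 CPM, a robust dispersion, 1 fit of all groups, a replicate block, limma 3.58.1 on log2(FPKM + 1) and log2(FPKM + 0.1) of genes with a mean FPKM of at least 1, and leaving out each library. Skeletal muscle genes summed to at most 0.745 CPM in liver and to 97.2 to 178 CPM in vehicle and 55.1 to 64.8 CPM in treated fat. Enterocyte genes summed to 1368 to 2946 CPM in vehicle and 492 to 1348 CPM in treated livers, and to 6.78 to 14.9 CPM in fat. Almost all of the sum in liver was Apoa4, at means of 1913 and 893 CPM, which liver also makes. Lymphocyte genes in fat summed to 20.4 to 59.3 CPM and epithelial genes to 14.2 to 126.5 CPM. Brown fat genes summed to 105.7 CPM in halofuginone fat 1 and to 3.86 to 17.0 CPM in the other fat samples. Ucp1 of that list was above every vehicle sample in 1 treated fat sample, at 45.4 CPM against at most 0.635 CPM in vehicle fat.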

Additional observations from a re-analysis of the deposited data

Results flagged for a closer look

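Among 20 groups of 5 livers, 2 held a value whose gap to the nearest other was over 0.71 of the group's range, and chance gives about 1. Fabp2 in vehicle liver 5 was 99.1 CPM, where the nearest vehicle liver was 92.5 CPM and the gap was 0.751 of the range. Lpl in halofuginone liver 1 was 35.1 CPM, where the nearest treated liver was 12.1 CPM and the gap was 0.902 of the range.

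In edgeR's quasi-likelihood test, the effect of halofuginone in fat minus liver was called for Pparg, at 1.71 log2 units (adjusted p = 0.0438). It was also called for Fabp4, at 2.01 (adjusted p = 0.0364). Neither call was firm: it was lost in 16 of the alternatives below for Pparg and in 11 for Fabp4.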

How the results depend on the processing

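All 10 genes kept their direction in liver under the 20 alternatives, and Pparg, Cd36, Fabp4 and Fabp5 also kept their call. Leaving out a library in turn gave 4 to 9 members called in liver and 1275 to 5312 genes, the highest without halofuginone liver 1. With library size alone, 2789 genes were higher and 838 lower in liver (76.9% of calls higher, against 54.7%), since the median of all genes shifted by 0.16, and limma on log2(FPKM + 1) gave 72.2% higher. In fat no alternative called a member. The fat calls over all genes were 723 with DESeq2, 334 in 1 fit of all groups, 1 without a filter and 0 to 1 leaving out a library. For the difference between tissues, 687 genes were called with DESeq2, 291 with limma on log2(FPKM + 1), 20 with a replicate block and 34 to 1053 leaving out a library. The members called there were 4 with DESeq2, 1 with library size alone, 1 with limma on log2(FPKM + 0.1), 0 with a replicate block and 0 to 4 leaving out a library. The call was lost in 16 of 25 alternatives for Pparg and 11 of 25 for Fabp4. Leaving out a library moved Pparg between 1.53 and 1.87 (adjusted p 0.0198 to 0.0929) and Fabp4 between 1.78 and 2.15 (adjusted p 0.0139 to 0.0782). Slc27a2 in fat changed sign, to 0.072 with a replicate block and from -1.01 to 0.77 leaving out a library. Its difference between tissues became 0.38 with a replicate block, 0.15 with limma on log2(FPKM + 1) and -0.64 to 1.18 leaving out a library. The cause of these changes was not tested.

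Samples with the same number did not deviate together (correlations of -0.156 to 0.057 in liver and -0.57 to 0.111 in fat, with 1 of 5 and 0 of 3 matching their own number best), so the numbers were not used for pairing. With the replicate block, 1901 genes were called in liver, Slc27a5 lost its call (-0.58, adjusted p = 0.0537), and the differences between tissues of Pparg (1.65, adjusted p = 0.109) and Fabp4 (2.00, adjusted p = 0.0688) lost theirs.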
